A study of Mus musculus with 8 samples.

Results

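Genes whose products move chromosomes, build the centromere and kinetochore or run the spindle checkpoint were taken from a gene count table of transferred mouse CD4+ T cells. Members were all genes whose symbol began with Kif and a digit, Cenp, Bub, Aurk, Ndc80, Nuf2 or Spc2, together with Cdc20, Ccnb1, Ccnb2, Cdk1, Plk1, Top2a and Mki67. This gave 63 members of 11354 measured genes. By role, 44 of them act in mitosis: 12 mitotic kinesins, 15 genes of centromere chromatin and the inner kinetochore, 5 of the outer kinetochore, 4 of the spindle checkpoint with Cdc20, 6 mitotic kinases and cyclins, and Top2a with Mki67. The other 19 were counted as members with another role, 15 as kinesins of transport, cilia or centrioles (Kif1bp among them is a kinesin-binding protein) and 4 others (Aurkaip1, Cenpb, Cenpj and Cenpv). The split is not strict, since a gene such as Kif2a acts in interphase and also at spindle poles. Cenpb binds centromeric satellite DNA but is not needed for division.

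The study compared wild type CD4 T cells with Nlrp6-/- CD4 T cells, each after transfer into lymphocyte-lacking RAG-/- hosts of strain background Black6. Each label had 4 libraries, from hosts numbered 1, 2, 4 and 5, called WT 1, 2, 4, 5 and KO 1, 2, 4, 5 here. The labels give no age, and name the tissue as host spleen in one field and as colonic lamina propria in the extraction protocol. They do not say whether host 1 of both labels was one animal, so libraries were not paired. Each p-value measures spread among libraries from differently numbered hosts within a label, whose technical part cannot be told here. Total counts ran from 35198192 in KO 4 to 40310721 in WT 1.

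Nlrp6 itself went against the labels. The libraries labelled wild type held 5, 3, 3 and 8 Nlrp6 counts, and those labelled knock-out held 487, 329, 477 and 648. All differences below are therefore between libraries labelled knock-out and libraries labelled wild type, and their direction with respect to the genotype was not established. The labelled cell type had its defining markers: all 12 T cell markers looked for were measured, with summed levels of 8449 to 9637 CPM (counts scaled to a common library total) under the wild type label and 8020 to 8815 under the knock-out label. All 18 myeloid markers were measured too, and summed to 154 to 195 CPM under the wild type label and 457 to 1286 under the knock-out label, with KO 4 highest. None of the 8 B and plasma cell markers was in the table. KO 4 stood apart for the mitotic genes, so results on them are given with it and without it.

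Many mitotic proteins are destroyed as a cell leaves mitosis and made again in the next division. Many promoters of mitotic genes carry elements called CHR and CCAAT boxes. In G2 phase, transcription factors of the DREAM/MuvB, B-Myb and FoxM1 system switch on a shared programme through CHR. The same genes are held down in resting cells. The RNA of these genes in a bulk sample therefore follows the share of cells that are in or near mitosis as well as the amount of RNA in each such cell, and fewer dividing cells and less mitotic RNA per cell cannot be told apart here. Dividing T cells are known to express the whole set strongly, since an activated T cell expands clonally.

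The promoters of 6 members at the centre of the programme are shown. Each carries at least 1 CCAAT box and 2 of them, Cdc20 and Cdk1, carry CHR letters beside it. The letters alone did not pick these 6, since Bub1b and Kif23 also carry a CCAAT box in this stretch and are not printed. Each line gives the 150 bases before the annotated start, 5′ to 3′ on the gene's strand, from RefSeq on GRCm38.p6. Capitals mark CCAAT (or ATTGG, its reverse complement) and the CHR letters TTTGAA (or TTCAAA) and TTCGAA; none of these letter strings contains another. Ccnb1 encodes cyclin B1 and its stretch lies at chr13:100786487-100786636, minus strand. Ccnb2 encodes cyclin B2 (chr9:70421555-70421704, minus strand). Cdk1 is the kinase both cyclins activate (chr10:69352913-69353062, minus strand). Cdc20 activates the anaphase-promoting complex and is what the checkpoint restrains (chr4:118437344-118437493, minus strand). Plk1 is the polo kinase of mitotic entry and spindle assembly (chr7:122159285-122159434, plus strand). Cenpe is a kinesin that carries chromosomes towards the spindle equator (chr3:135212413-135212562, plus strand).
Ccnb1: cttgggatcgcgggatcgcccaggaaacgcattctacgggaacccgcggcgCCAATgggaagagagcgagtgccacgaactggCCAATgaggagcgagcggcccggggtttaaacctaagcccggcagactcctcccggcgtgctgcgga
Ccnb2: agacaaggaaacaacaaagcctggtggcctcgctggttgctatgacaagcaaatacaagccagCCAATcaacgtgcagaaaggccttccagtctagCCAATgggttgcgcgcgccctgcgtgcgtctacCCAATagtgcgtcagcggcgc
Cdk1: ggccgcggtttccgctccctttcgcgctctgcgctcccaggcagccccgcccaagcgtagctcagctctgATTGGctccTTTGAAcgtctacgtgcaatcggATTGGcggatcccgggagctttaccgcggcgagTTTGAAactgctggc
Cdc20: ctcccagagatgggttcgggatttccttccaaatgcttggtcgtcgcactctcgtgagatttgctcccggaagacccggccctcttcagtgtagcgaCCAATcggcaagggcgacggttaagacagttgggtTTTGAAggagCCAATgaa
Plk1: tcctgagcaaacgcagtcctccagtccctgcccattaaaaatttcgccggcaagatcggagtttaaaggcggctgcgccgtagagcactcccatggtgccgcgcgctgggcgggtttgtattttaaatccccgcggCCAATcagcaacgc
Cenpe: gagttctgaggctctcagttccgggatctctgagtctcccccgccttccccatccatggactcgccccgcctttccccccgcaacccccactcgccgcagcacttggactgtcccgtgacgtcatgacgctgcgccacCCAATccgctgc

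Within these stretches Ccnb1 held 2 CCAAT boxes, at positions -99 and -67 from the start, and Ccnb2 held 3, at -87, -54 and -21. Cdc20 held CHR letters at -18 between CCAAT boxes at -53 and -8. Cdk1 held CHR letters at -71 and -15 with reversed CCAAT boxes at -80 and -48. Plk1 and Cenpe held 1 CCAAT box each, at -14 and -12. Over the whole RefSeq window of 300 bases (250 before the start and 50 after it, both strands), CHR letters were found in 27 of the 41 mitotic members that have a window (65.9%, exact binomial interval 49.4 to 79.9%). Among all 27025 genes with a window the share was 19.4%, and among the 9075 of them measured here it was 14.0%. CCAAT letters were found in 32 of the 41 (78.0%, interval 62.4 to 89.4%), against 37.9% of all windows. Both were present in 23 of 41 (56.1%) against 7.70% of all windows. Of the 15 members with another role that have a window, 1 held CHR letters and 5 held CCAAT letters. That 1 was Kif24, a kinesin of the centriole. Counting only the bases before the start, the mitotic share with CHR letters was 39.0% and the share of all windows 17.4%. A match of letters describes the window and is not evidence that a factor binds there.

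In the comparison of the labels, no member passed the threshold in either direction. With edgeR's quasi-likelihood test and Benjamini-Hochberg adjustment over all genes, 0 of 63 members were higher and 0 lower at an adjusted p of 0.05. Of all genes tested, 6.20% were called higher under the knock-out label and 3.84% lower. At an unadjusted p of 0.05, 3 members were below the threshold: Kif13b, Kif21b and Cenpx. Of all 11354 genes, 2666 were below it. DESeq2 called 0 higher and 2 lower, Kif13b and Kif21b, and limma-voom with quality weights called Kif13b alone. Of all 11354 genes, DESeq2 called 1579 and limma-voom 1384. The log2 differences of the 44 mitotic members ran from -0.27 (Cenpk) to 0.26 (Kif14), with a median of -0.06 beside -0.0026 for all genes. Of the 44, 12 were positive and 32 negative. Their median standard error was 0.163, against 0.0762 for all genes, so changes of a given size were harder to call in mitotic members than in most genes. Without KO 4, the standard error fell to 0.0827 and the median moved to 0.07, with 35 of 44 positive. Then 2 members were called higher, Kif14 and Nuf2, and none lower, where 6.06% of all genes were higher and 4.48% lower. KO 4 was left out because of its values for these same genes. The smaller errors and adjusted p-values without it therefore give no independent support for a label difference.

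**Figure D1:**
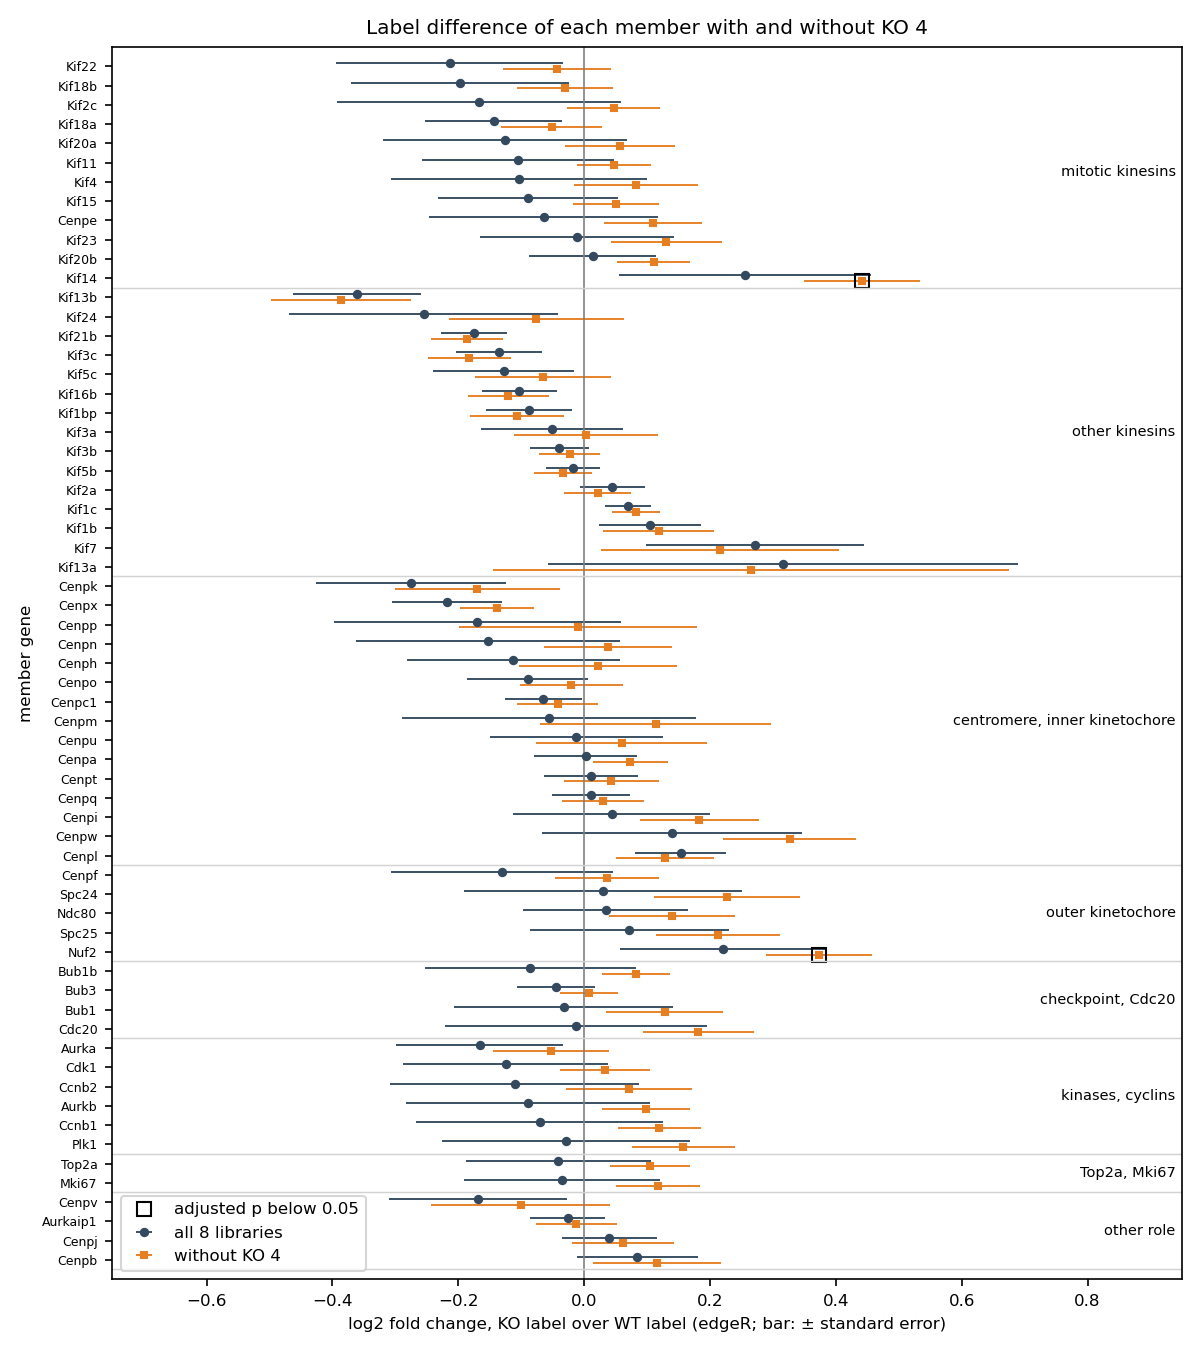
Log2 difference of each member (labelled knock-out minus labelled wild type, edgeR) with all 8 libraries and without KO 4, by role; bars are the standard error. With 8 libraries no member passed an adjusted p of 0.05, and without KO 4 the standard errors of the mitotic members were smaller and 35 of 44 lay above 0, with Kif14 at 0.44 and Nuf2 at 0.37.

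Both genes that were called without KO 4 lie on chromosome 1. Kif14 (Entrez 381293, chr1:136466301-136555938) is a kinesin of the central spindle and midbody needed for cytokinesis. Its level was 21.1, 16.7, 21.2 and 20.4 CPM in WT 1, 2, 4 and 5, and 26.8, 25.1, 13.7 and 29.1 CPM in KO 1, 2, 4 and 5. KO 1, 2 and 5 lay above all 4 labelled wild type and KO 4 lay below them all. The log2 difference was 0.26 ± 0.20 (SE, 95% interval -0.19 to 0.71, edgeR adjusted p = 0.509) with all libraries and 0.44 ± 0.09 (edgeR adjusted p = 0.0149) without KO 4. Nuf2 (Entrez 66977, chr1:169497934-169531464) encodes a subunit of the Ndc80 complex that grips microtubules. It measured 21.4, 18.3, 20.7 and 21.1 CPM under the wild type label and 24.6, 24.9, 15.6 and 29.7 CPM under the knock-out label, the same arrangement as Kif14. Its log2 difference was 0.22 ± 0.16 (edgeR adjusted p = 0.482) with all libraries and 0.37 ± 0.08 (edgeR adjusted p = 0.0229) without KO 4. Kif14 and Nuf2 were therefore called only when KO 4 was left out, an omission chosen on the values of the mitotic genes themselves. Cenpw on chromosome 10 and Kif20b on chromosome 19 had the same arrangement of libraries, but neither was called without KO 4.

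KO 4 was the lowest of the 8 libraries for 41 of the 44 mitotic members (93.2%), where 19.4% of all genes had their lowest value there. The 3 exceptions were Cenpl, Cenpq and Cenpt, all of the inner kinetochore. The mean log2 CPM of the 44 members was 4.19 in KO 4, 4.80 to 5.00 in the other libraries labelled knock-out and 4.70 to 4.86 in those labelled wild type. KO 4 thus lay 0.68 below the mean of the other 3, whose SD was 0.11, and the median member stood at 59.0% of its level in them. KO 5 was at the other end, highest of the 8 for 32 of the 44 (72.7%), where 14.4% of all genes peaked there. These shares describe single libraries and carry no test.

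**Figure D2:**
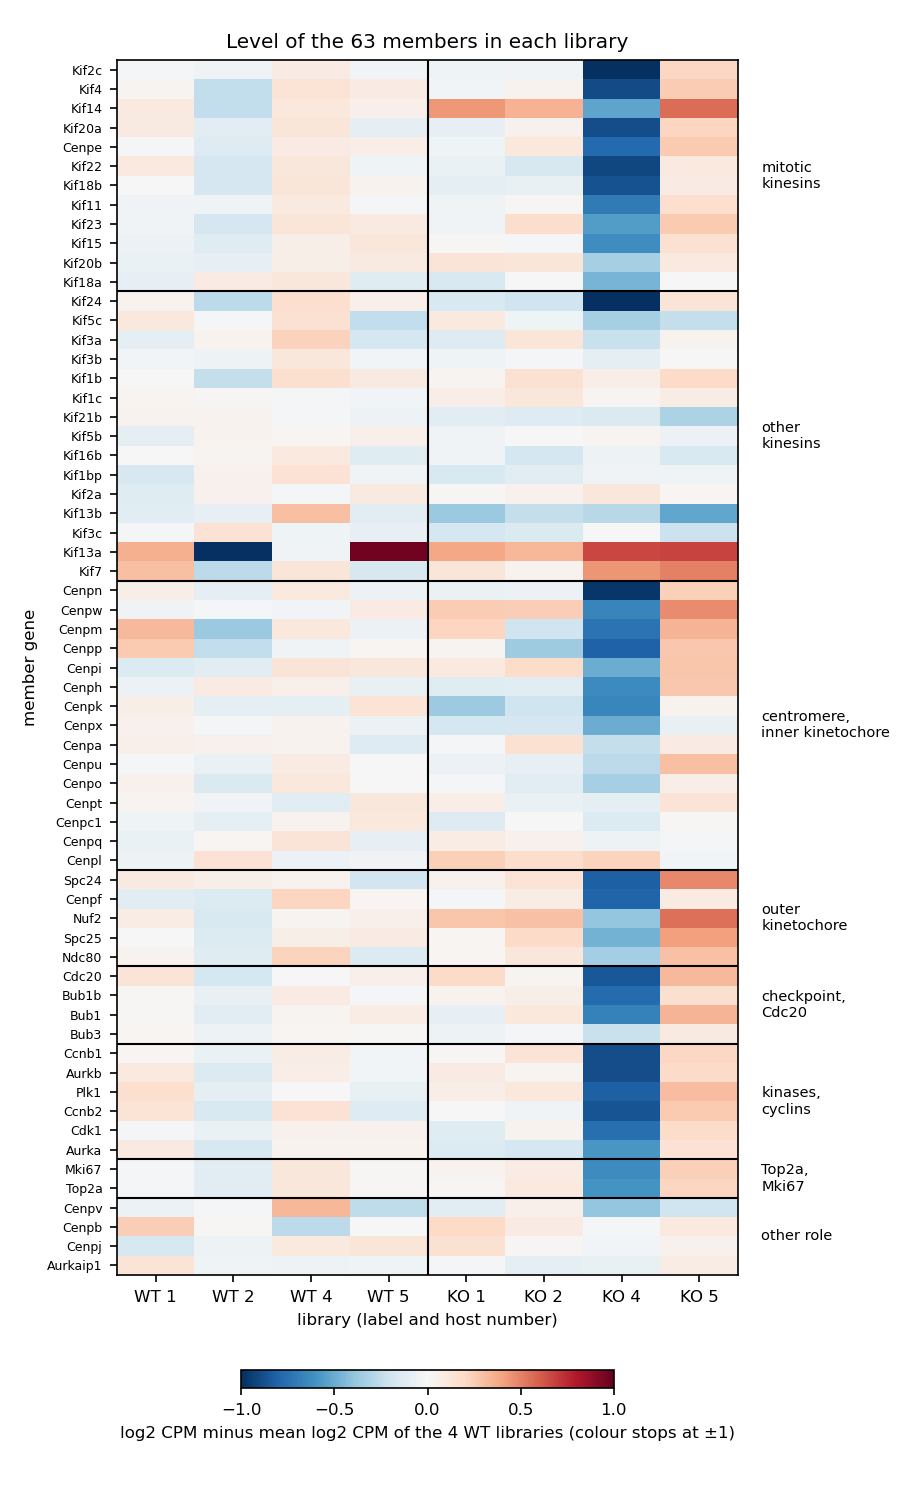
Log2 CPM of each member in each library minus its mean over the 4 libraries labelled wild type, members grouped by role (blue lower, red higher; the colour scale stops at 1 on either side). The KO 4 column is blue through nearly all mitotic rows and mixed through the other kinesins, and the KO 5 column is red in most mitotic rows.

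Among the mitotic kinesins, KO 4 was lowest of the 8 libraries for all 12, at a median of 55.1% of the other libraries labelled knock-out. Kif11 is the bipolar kinesin that pushes spindle poles apart. It measured 133, 133, 146 and 135 CPM in WT 1, 2, 4 and 5, then 133, 138, 83.7 and 153 CPM in KO 1, 2, 4 and 5. Its groups overlapped, with a log2 difference of -0.11 ± 0.15 (edgeR adjusted p = 0.761). Kif2c, which removes tubulin from microtubule ends to correct wrong attachments, had the deepest drop of any mitotic member, to 43.8% in KO 4. Its values were 22.6, 22.4, 24.2 and 22.4 CPM, then 22.3, 22.3, 10.4 and 26.5 CPM. Kif20a and Kif23, kinesins of the central spindle in anaphase and cytokinesis, stood at 51.7% and 61.8% in KO 4. Kif4, which helps to order chromosome arms and the central spindle, stood at 50.6%, Cenpe at 53.9% and Kif22, which moves chromosome arms, at 54.7%. Kif22 had the lowest label difference of the class, -0.21 ± 0.18 (SE, edgeR adjusted p = 0.548). The least affected were Kif18a, which damps chromosome movement, at 74.7% and Kif20b at 73.4%.

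The centromere and inner kinetochore genes had the widest range of the mitotic classes. KO 4 was lowest for 12 of 15, with a median of 78.0%, and single genes ran from 49.4% to 106.5%. Cenpn, which recognises centromeric nucleosomes, measured 10.6, 9.503, 10.9 and 9.74 CPM under the wild type label and 9.68, 9.73, 5.16 and 11.95 CPM in KO 1, 2, 4 and 5. Cenpa, the histone H3 variant that marks the centromere, was at 80.2% in KO 4. It measured 72.8, 72.4, 72.1 and 64.3 CPM, then 69.9, 78.1, 59.5 and 74.5 CPM, with a label difference of 0.0023 ± 0.08 on the log2 scale (SE, edgeR adjusted p = 0.993). Cenpc1, the bridge from centromeric chromatin to the outer kinetochore, was at 93.3%, and Cenpt, the other such bridge, at 90.6%. Cenpl was the one mitotic member with KO 4 above the mean of KO 1, 2 and 5, though KO 1 itself was higher. It measured 39.5, 45.2, 39.1 and 39.9 CPM, then 48.1, 46.1, 47.7 and 40.2 CPM, and its label difference of 0.15 ± 0.07 was not called (SE, edgeR adjusted p = 0.244). Cenpk, a subunit of the constitutive centromere network, had the most negative difference of the mitotic members, -0.27 ± 0.15 (SE, edgeR adjusted p = 0.322). Cenpx, which also acts in DNA repair, was the one mitotic member whose labels did not overlap: 18.3 to 19.7 CPM under the wild type label and 13.6 to 18.2 under the knock-out label, where 16.0% of all genes had labels that did not overlap. Its difference was -0.22 ± 0.09 (SE, edgeR adjusted p = 0.169), and it overlaps the measured gene Lrrc45 in the genome.

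The outer kinetochore genes were lowest in KO 4 for all 5, with a median of 58.9%. Spc24 had the largest drop, to 48.2%. It measured 14.0, 13.7, 13.5 and 11.5 CPM under the wild type label and 13.6, 14.5, 7.45 and 18.3 CPM in KO 1, 2, 4 and 5. KO 4 was the lowest and KO 5 the highest library for this gene. Cenpf, a large protein of the kinetochore corona, measured 51.1, 49.99, 63.7 and 55.5 CPM, then 54.1, 57.6, 31.4 and 57.9 CPM. Label differences of this class ran from -0.13 (Cenpf) to 0.22 (Nuf2). Per kilobase of transcript, the 4 subunits of the Ndc80 complex made up fairly even shares of their summed level in the 8 libraries: Ndc80 34.9% ± 2.4, Spc24 28.2% ± 2.6, Nuf2 23.0% ± 1.6 and Spc25 13.9% ± 0.76 (SD, n = 8). In KO 4 the share of Ndc80 was the highest of the 8 at 39.2% and that of Spc24 the lowest at 23.1%.

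All 4 genes of the checkpoint class were lowest in KO 4, with a median of 56.3%, and all 4 were highest in KO 5. Bub1 and Bub1b, the kinase and its relative that hold back anaphase until every chromosome is attached, were at 57.1% and 55.4%. Bub1 measured 33, 30.4, 33.4 and 34.5 CPM, then 31.0, 35.2, 20.5 and 41.5 CPM. Cdc20 measured 36.7, 29.7, 33.7 and 34.7 CPM, then 38.3, 34.3, 18.6 and 42.2 CPM, so that KO 4 stood at 48.7% of the others with its label. Bub3, which binds both Bub1 and Bub1b and is also found in non-dividing cells, was less affected, at 85.3%. It measured 96.8, 92.2, 97.2 and 96.6 CPM, then 92.2, 94.6, 82.2 and 102 CPM. As a share of the summed level of Bub1, Bub1b and Bub3 per kilobase, Bub3 was 68.8% ± 2.9 (SD, n = 8) and 75.6% in KO 4. Label differences in the class lay between -0.09 (Bub1b) and -0.01 (Cdc20).

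Kinases and cyclins of mitotic entry had the lowest median in KO 4, 51.3%, and all 6 were lowest in KO 4 and highest in KO 5. Ccnb1 measured 20.5, 19.3, 21.4 and 19.9 CPM under the wild type label and 20.4, 22.3, 10.9 and 23.4 CPM under the knock-out label. Ccnb2 measured 50.7, 41.7, 51.1 and 42.4 CPM, then 46.1, 45.1, 25.4 and 55.4 CPM. Cdk1 measured 46.2, 44.9, 48.4 and 48.3 CPM, then 43.1, 48.0, 27.8 and 53.2 CPM. The labels overlapped for all 3 genes and KO 4 lay outside the range of the other 7 libraries. Their shares of the summed level per kilobase nevertheless stayed close: Ccnb2 was 54.3% ± 1.8 (SD, n = 8) and 53.3% in KO 4, Cdk1 29.7% ± 1.6 and 31.4%, and Ccnb1 16.0% ± 0.69 and 15.3%. Plk1 measured 34.5, 28.8, 30.9 and 29.2 CPM, then 32.2, 33.1, 17.5 and 38.1 CPM. Aurkb, the kinase of the chromosomal passenger complex, stood at 50.4% in KO 4 and Aurka, the kinase of the spindle poles, at 69.0%, which left Aurka with 42.1% of their summed level per kilobase there against 36.8% ± 2.6 over the 8 libraries (SD). Label differences ran from -0.17 ± 0.13 for Aurka (SE, edgeR adjusted p = 0.523) to -0.03 ± 0.20 for Plk1 (SE, edgeR adjusted p = 0.961).

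Top2a, the topoisomerase that untangles sister chromatids, and Mki67, which coats mitotic chromosomes and is the standard marker of cycling cells, were the most abundant mitotic members. Mki67 (Entrez 17345, chr7:135689784-135716450) measured 673, 624, 733 and 680 CPM in WT 1, 2, 4 and 5, and 694, 714, 437 and 800 CPM in KO 1, 2, 4 and 5. Means were 678 ± 44.6 and 661 ± 156 CPM (SD, n = 4 each), and the log2 difference was -0.04 ± 0.16 (95% interval -0.39 to 0.31, edgeR adjusted p = 0.935). Top2a (chr11:98992947-99024199) measured 384, 359, 418 and 390 CPM, then 390, 414, 255 and 448 CPM. Its log2 difference was -0.04 ± 0.15 (95% interval -0.37 to 0.29, edgeR adjusted p = 0.917). The interval of each excludes a change of 1 on the log2 scale in either direction. Per kilobase, Top2a stood at 68.7 ± 10.4 and Mki67 at 66.4 ± 10.6 CPM (SD, n = 8), which did not differ beyond their spread.

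**Figure D3:**
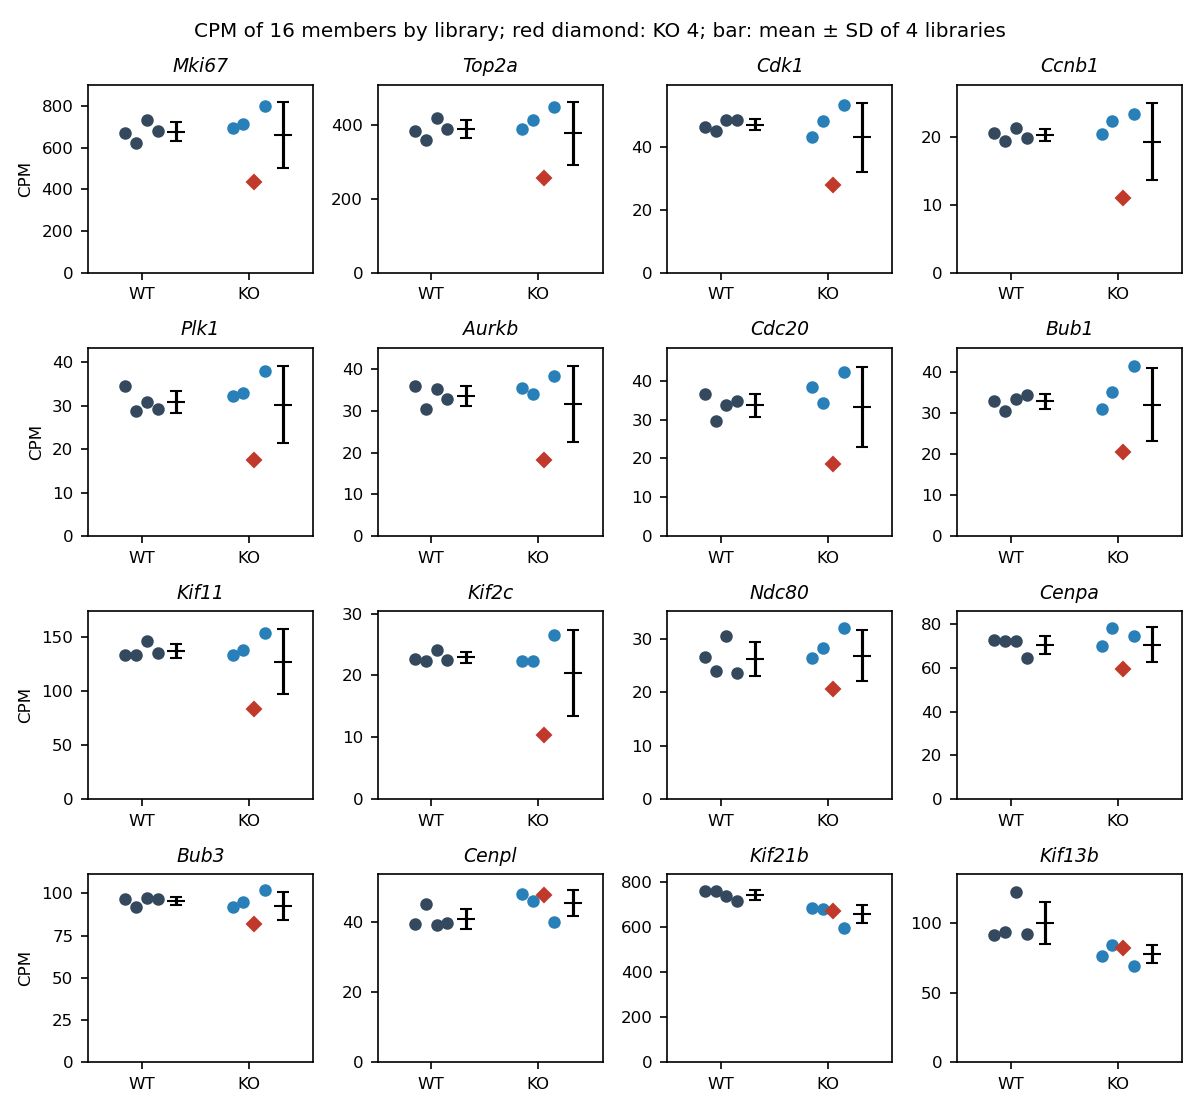
CPM of selected members, one point per library, coloured by label, with KO 4 as a red diamond and bars for the mean ± SD of 4 libraries. KO 4 is the lowest point for every mitotic member shown except Cenpl, while for Kif21b and Kif13b all 4 libraries labelled knock-out lie below all 4 labelled wild type.

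As groups, the 19 members with another role did not share this pattern. The other kinesins stood at a median of 104% in KO 4, which was lowest of the 8 for 4 of 15. Kif24 was the exception, with 6.10, 4.94, 6.68 and 6.16 CPM under the wild type label and 5.33, 5.17, 2.96 and 6.505 CPM under the knock-out label, 52.3% in KO 4. Kif21b (Entrez 16565, chr1:136131390-136178001), a kinesin of neurons and lymphocytes that limits microtubule growth, was the most abundant member per kilobase at 75.2 ± 5.9 CPM (SD, n = 8). It measured 758, 758, 735 and 715 CPM, then 685, 677, 669 and 596 CPM, so the labels did not overlap. Its log2 difference was -0.18 ± 0.05 (edgeR adjusted p = 0.0666). Kif13b (Entrez 16554, chr14:64652492-64809618), a transport kinesin of the plasma membrane, measured 92.0, 94.2, 123 and 92.2 CPM, then 76.7, 84.2, 82.1 and 69.4 CPM, again without overlap. Its difference was -0.36 ± 0.10 (SE, edgeR adjusted p = 0.0546). DESeq2 called both lower, with adjusted p of 0.00836 for Kif13b and 0.0133 for Kif21b, so their calls depended on the test. Kif5b, the conventional kinesin heavy chain, ran from 272 to 300 CPM in all 8 libraries. Kif13a, at 0.713 to 3.39 CPM, was the member with the lowest level per kilobase, 0.315 ± 0.11 CPM (SD, n = 8), and had the highest difference of the class, 0.32 ± 0.37 (SE, edgeR adjusted p = 0.691). Of the 4 others, Cenpb had the highest difference, 0.08 ± 0.10 (SE, edgeR adjusted p = 0.678), and Cenpv the lowest, -0.17 ± 0.14 (SE, edgeR adjusted p = 0.544). Cenpv was also lowest of the 8 libraries in KO 4, at 80.8%, where the median of these 4 was 92.2%.

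Levels of the mitotic members moved together over the libraries. After the mean of each label was removed from each gene's log2 CPM, the median Pearson correlation over the 946 pairs of mitotic members was 0.90, and 87.9% of pairs were above 0.5. All pairs share the same 8 libraries, so these values are a description. Without KO 4 the median was 0.61 over 7 libraries. It was 0.96 with and 0.69 without KO 4 among the mitotic kinesins, 0.96 and 0.78 among kinases and cyclins, 0.94 and 0.74 in the checkpoint class, 0.89 and 0.58 in the outer kinetochore, and 0.71 and 0.30 in the inner kinetochore. The other kinesins gave -0.03 and 0.05, and all genes 0.00 in both. In log2 CPM with the label means kept and genes not scaled, the first component held 88.7% of the variance of the 44 members. On it KO 4 lay at -4.03, KO 5 at 1.81 and the other 6 libraries between -0.38 and 0.79. KO 4 therefore carried a large part of the co-variation, and a lower level of it was present among the other 7 libraries, where KO 5 lay at one end.

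Against the mean of the mitotic members, 33 of the 44 had a correlation above 0.9, and 10 had one without KO 4. Cenpn and Mki67 were closest, both at 0.996, with 0.958 and 0.959 without KO 4. Cenpl was the farthest of the mitotic members, at -0.59, and at -0.98 without KO 4. Kif24 reached 0.98 although it was counted with the other kinesins, and 0.95 without KO 4.

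Genes of the same pathway outside the member list also had their lowest level in KO 4. Of 88 other mitotic genes, 0 were called higher and 0 lower between the labels, their median log2 difference was -0.04, and KO 4 was lowest of the 8 for 78 at a median of 63.4% of the other libraries labelled knock-out. At an unadjusted p of 0.05, 1 was higher and 0 lower (edgeR), and DESeq2 called 0. Of all 11354 genes, 1436 were higher and 1230 lower at that unadjusted p, and DESeq2 called 1579. Birc5, the survivin subunit of the chromosomal passenger complex, measured 39.2, 37.6, 41.1 and 36.2 CPM, then 43.5, 43.6, 25.6 and 51.0 CPM. The smallest p-values of that list belonged to Lin54 (log2 difference 0.16), Ska2 (-0.20) and Lin37 (-0.10), none of them called. Of 52 DNA replication genes, 0 were called in either direction, with a median of -0.05, and KO 4 was lowest for 43 at a median of 70.2%. Here too 1 was higher at an unadjusted p of 0.05 and 0 lower (edgeR), and DESeq2 called 0. Orc2 (0.15), Pold2 (-0.18) and Mcm6 (-0.13), which act at replication origins and forks, had the smallest p-values there and were not called. The median pairwise correlation was 0.90 among the other mitotic genes and 0.85 among replication genes, and 0.54 and 0.65 without KO 4.

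Genes that control entry into and exit from the cycle behaved less uniformly, with a median pairwise correlation of 0.11 over 29 genes and a KO 4 median of 90.4%. Of these, 2 rose under the knock-out label and 0 fell, where 6.20% and 3.84% of all genes did. Ccnd1, cyclin D1 of the G1 phase, rose by 1.79 ± 0.23 on the log2 scale (SE, edgeR adjusted p = 0.00109), from 0.632 to 1.201 CPM under the wild type label to 2.43 to 3.71 under the knock-out label. Cdkn1a, the p21 inhibitor of cyclin-dependent kinases, rose by 0.50 ± 0.10 (SE, edgeR adjusted p = 0.00913). It measured 114, 123, 110 and 109 CPM, then 136, 159, 194 and 157 CPM, with KO 4 highest of the 8. With the description code as a term Cdkn1a was not called (0.37, edgeR adjusted p = 0.0619). With the mean log2 CPM of the myeloid markers as a covariate neither gene was, at 0.93 for Ccnd1 and -0.29 for Cdkn1a. That fit called only 7 of 11354 genes, because the covariate does not overlap between the labels, so it cannot decide whether the rises depend on myeloid level. Cdkn2a had the next smallest p, at -0.53 ± 0.19 (SE, edgeR adjusted p = 0.131). T cells are known to rely on cyclins D2 and D3, and Ccnd2 and Ccnd3 were measured at 289 to 366 and 175 to 252 CPM over the 8 libraries.

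**Figure D4:**
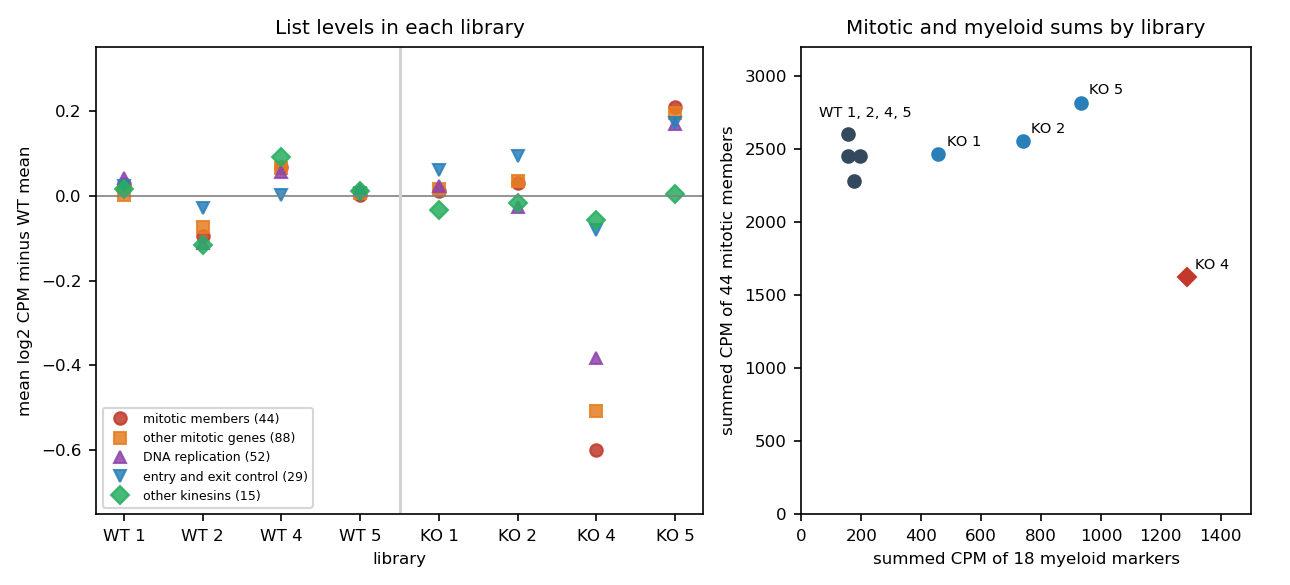
Left, mean log2 CPM of 5 gene lists in each library minus their mean under the wild type label; right, summed CPM of the 44 mitotic members against summed CPM of 18 myeloid markers, one point per library. KO 4 has the lowest mitotic sum and the highest myeloid sum, while KO 1, 2 and 5 have a mitotic sum of 2467 to 2818 CPM at myeloid sums above those of all libraries labelled wild type.

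Among markers of other cells, the myeloid sums were higher under the knock-out label and highest in KO 4. Summed myeloid markers were 457, 739, 1286 and 933 CPM in KO 1, 2, 4 and 5, 5.02 times the wild type mean (exact two-sided permutation p = 0.0286, the smallest that 4 against 4 libraries allow, adjusted p = 0.143 over 5 marker lists). Of the 18, 17 rose between the labels (edgeR). The summed mitotic level was 1622 CPM in KO 4 and 2467, 2553 and 2818 CPM in KO 1, 2 and 5, against 2284 to 2607 under the wild type label. KO 5, with the second highest myeloid sum, thus had the highest mitotic sum. T cell markers summed to 8815 CPM in KO 4, the highest of its label. Stromal and endothelial markers (10 of 11 measured) summed to 126 CPM in KO 4, the lowest of its label, within the 121 to 187 CPM of the wild type label. Of 9 epithelial markers 5 were measured and of 5 red cell markers 2, with sums of 37.7 and 18.5 CPM in KO 4, inside the range of the wild type label. The part of these cells, or of the lower total count of KO 4, in its mitotic level was not tested. The description field gives KO 4 and KO 5 a code of 8 and the other 6 libraries a code of 7, so KO 4 shares its code with the library at the other end.

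Genes that are not members could also follow the mitotic mean. In all, 389 of 11354 genes had a correlation above 0.9 with it, 355 of them not members, over 8 libraries and 185 did without KO 4. The 5 closest genes that are not members were Pclaf, the PCNA clamp-associated factor, Troap, Fbxo5, the early mitotic inhibitor of the anaphase-promoting complex, Map1a and E2f8, with correlations of 0.996 to 0.998 over 8 libraries and 0.965 to 0.983 without KO 4. Pclaf measured 104, 87.9, 104 and 97.2 CPM, then 101, 102, 57.0 and 122 CPM. Map1a, a microtubule-associated protein better known from neurons, measured 3.65, 3.31, 3.79 and 3.52 CPM, then 3.10, 3.13, 1.23 and 4.01 CPM, 36.1% in KO 4. Of genes in none of the lists, Pclaf, Map1a, Rad54l, Chek1 and Brip1 were closest, and Rad54l, Chek1 and Brip1 act in DNA repair and its checkpoint.

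**Figure D5:**
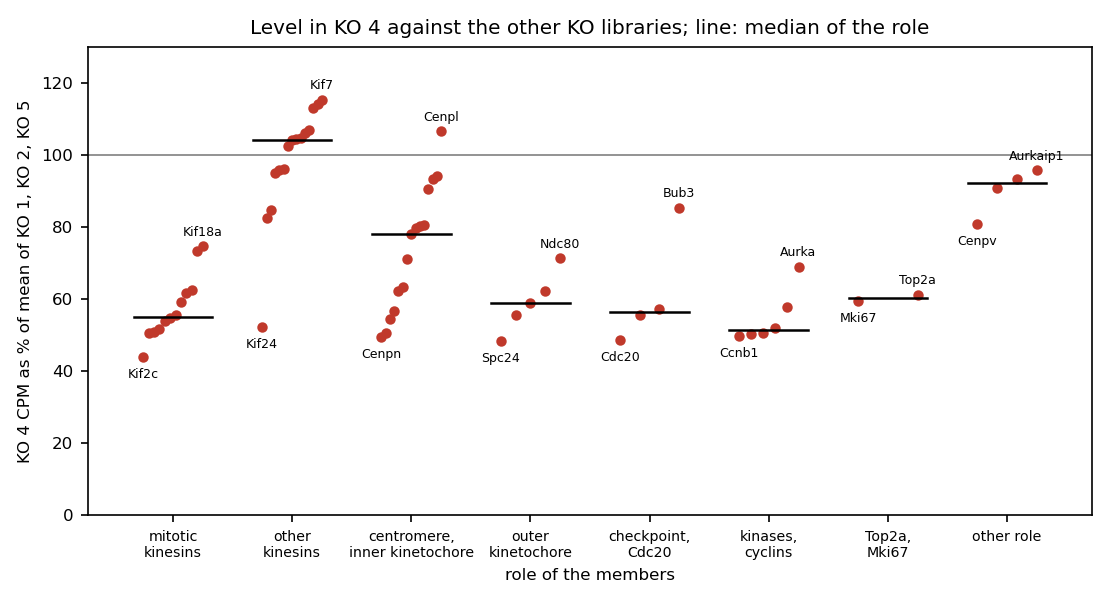
Level of each member in KO 4 as a percentage of its mean in KO 1, 2 and 5, by role, one point per gene. Medians are 51.3% for kinases and cyclins, 55.1% for mitotic kinesins and 78.0% for the inner kinetochore, beside 104% for the other kinesins.

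The promoter letters can be set beside these levels. The median level in KO 4 was 57.1% of the other libraries labelled knock-out for the 27 mitotic members with CHR letters in their window, and 72.9% for the 14 without. The ranges overlapped, from 43.8 to 106.5% and from 49.6 to 94.2%, and Cenpl at the top of the first carries CHR letters while Ccnb1 at the bottom of the second carries none in this window. Most of the 14 without CHR letters were inner kinetochore genes, the mitotic class with the highest median in KO 4, 78.0%. Those outside that class were Ccnb1 (49.6%), Cenpe (53.9%), Nuf2 (58.9%) and Kif18a (74.7%). CHR letters and role thus cannot be told apart in these medians. For CCAAT letters the medians were 58.5% in the 32 with them and 71.4% in the 9 without, and the ranges overlapped again, from 48.7 to 106.5% and from 43.8 to 90.6%. Of the 6 promoters printed above, those with CHR letters in the whole window stood at 48.7% (Cdc20), 50.7% (Plk1), 51.98% (Ccnb2) and 57.8% (Cdk1), and those without at 49.6% (Ccnb1) and 53.9% (Cenpe). The difference between these medians was not tested.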

How the data were processed

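Poly(A) RNA was made into stranded libraries and read as single reads of 81 bases, per the labels' protocols. STAR and mm10 are named in the submitters' processing notes, with no version; which counting tool, annotation and strand setting followed is not given in the sources used here. The deposited table holds raw read counts per gene, with gene identifiers, symbols and lengths; 6 genes have no symbol. Where genes overlap (13 members overlap another measured gene), reads could be shared. Counts were tested with edgeR 4.0.16 (quasi-likelihood, TMM normalization, all 8 libraries, label as the only term, Benjamini-Hochberg adjustment over 11354 genes). The edgeR expression filter kept all 11354 genes. CPM are counts scaled to a common total after TMM, and log2 CPM use a prior count of 2. Alternatives used DESeq2 1.42.0 and limma 3.58.1 in R 4.3.3. Scripts were tested on simulated data. Totals of 35198192 to 40310721 counts per library set the counting precision, and counting intervals cover no other error. Promoter windows came from RefSeq for 56 of 63 members (5 have several, and the first listed was used). Named were 24 core genes, called genes, extremes per role, the 3 smallest p-values per pathway list, and the genes most like the mitotic mean; further members with their values were added after these were seen. Members and lists were chosen with earlier results of these data known.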

Additional observations from a re-analysis of the deposited data

Results flagged for a closer look

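Each gene's 4 values under one label were checked for a library that lay far from the other 3, by the gap to the nearest value as a share of the range (Dixon's criterion at 95%). Over 63 members and the mean mitotic level under both labels this made 128 groups, and 12 passed. Chance passes about 1 in 20 groups, and members that move together do not pass independently. In KO 4, Cenpf lay low at 31.4 CPM and Kif20b at 30.6 CPM. The mean mitotic level of KO 4 did not pass, with a ratio of 0.754 against a critical value of 0.829. Nor did KO 4 pass for any other mitotic member. WT 4 lay high for Kif11 at 146.3 CPM, Kif13b at 122.7, Kif2c at 24.2 and Kif3b at 90.9. WT 2 lay low for Bub3 at 92.2 CPM and Kif14 at 16.7 CPM, and high for Cenpl at 45.2 CPM. WT 5 lay low for Cenpa at 64.3 CPM and high for Cenpw at 5.64 CPM. WT 1 lay high for Aurkaip1 at 58.8 CPM. The high WT 4 value belongs to the wild type mean of Kif13b, whose label difference without that library was -0.25.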

How the results depend on the processing

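The members' label comparison was repeated under other normalizations, filters, tests and sets of libraries. Calls of members were few throughout: 2 members, Kif13b and Kif21b, were lower with total library size (adjusted p 0.0392 and 0.0336, edgeR) and 2 with DESeq2, and 1, Kif13b, with limma-voom (adjusted p = 0.0471). Of all 11354 genes, these settings called 1214, 1579 and 1384. For the genes of cell-cycle entry and exit, 1 was called higher with a minimum of 10 CPM in 4 libraries, which left Ccnd1 untested. With the description code as a term 1 was called higher, and with the mean log2 CPM of the myeloid markers as a covariate 0 were. The fit with the myeloid covariate called only 7 of all 11354 genes. That covariate does not overlap between the labels, and with it the median log2 difference of the mitotic members was 0.66. Without KO replicates 2 and 4 the median was 0.10 and 2 members were called higher, both mitotic, Kif14 and Nuf2, where 826 of all 11354 genes were called. With one library left out at a time, 0 to 2 members and 0 to 2 mitotic members were called higher, 2 only without KO 4, and 0 to 1 genes of entry and exit were called lower, 1 without WT 5 and 1 without KO 4. The mean mitotic level of KO 4 stayed 0.62 to 0.73 log2 below the others under every scaling, prior count, level minimum and omission run. The median correlation of mitotic members was 0.85 without removal of the label means and 0.60 when KO 4 was dropped before scaling. The share with CHR letters was 39.0% when only bases upstream of the start were searched. KO 4 set against the 7 other libraries, an alternative chosen after seeing the data, gave a gap of -0.63.

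The labels number hosts 1, 2, 4 and 5 under both labels but name 1 kind of transferred cell per library. Libraries with the same number did not all deviate together over all genes (correlations -0.06, 0.18, -0.14 and 0.26), so the number was not taken to pair them. With a replicate block on the host number, 1 member was called lower, Kif13b (adjusted p = 0.0364, edgeR), and signs changed to -0.028 for Spc24, -0.0030 for Cenpa and -0.021 for Chek1. That fit called 1020 of all 11354 genes.

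None of the following values was called. Signs of named genes changed with total library size to -0.013 for Cenpa and -0.0057 for Chek1. With limma-voom they changed to 0.036 for Mki67, 0.029 for Top2a, 0.017 for Ccnb1, 0.047 for Plk1, 0.0034 for Aurkb, 0.025 for Bub1, 0.079 for Cdc20, 0.013 for Cenpe, 0.066 for Kif23, 0.037 for Pclaf and 0.019 for E2f8. With the description code as a term they changed to 0.055 for Mki67, 0.051 for Top2a, 0.077 for Ccnb1, 0.081 for Plk1, 0.052 for Aurkb, 0.013 for Bub1, 0.045 for Bub1b, 0.11 for Cdc20, 0.031 for Cenpe, 0.020 for Cenpf, 0.067 for Kif23, 0.048 for Pclaf, 0.0029 for Fbxo5, 0.023 for E2f8 and 0.012 for Brip1. With the myeloid covariate they changed to 0.74 for Mki67, 0.68 for Top2a, 0.51 for Cdk1, 0.88 for Ccnb1, 0.70 for Ccnb2, 0.67 for Plk1, 0.16 for Aurka, 0.90 for Aurkb, 0.45 for Bub1, 0.82 for Bub1b, 0.10 for Bub3, 0.93 for Cdc20, 0.71 for Cenpe, 1.00 for Cenpf, 0.68 for Kif11, 0.65 for Kif20a, 0.60 for Kif23, 0.92 for Kif2c, 0.81 for Kif4, 0.65 for Kif22, -0.36 for Kif13a, 0.57 for Cenpv, 0.32 for Ska2, 0.15 for Mcm6, -0.29 for Cdkn1a, 0.19 for Cdkn2a, 0.73 for Pclaf, 0.63 for Troap, 0.74 for Fbxo5, 0.81 for Map1a, 0.69 for E2f8, 0.50 for Rad54l and 0.58 for Brip1. Without KO replicates 2 and 4 they changed to 0.13 for Mki67, 0.11 for Top2a, 0.029 for Cdk1, 0.11 for Ccnb1, 0.12 for Ccnb2, 0.18 for Plk1, 0.00075 for Aurka, 0.13 for Aurkb, 0.14 for Bub1, 0.091 for Bub1b, 0.015 for Bub3, 0.25 for Cdc20, 0.11 for Cenpe, 0.017 for Cenpf, 0.062 for Kif11, 0.063 for Kif20a, 0.11 for Kif23, 0.083 for Kif2c, 0.10 for Kif4, 0.0072 for Kif22, 0.18 for Pclaf, 0.0090 for Troap, 0.10 for Fbxo5, 0.12 for E2f8, 0.083 for Rad54l and 0.066 for Brip1. With one library left out at a time, 29 named genes changed sign at least once: Aurkb -0.20 to 0.098, Brip1 -0.18 to 0.064, Bub1 -0.18 to 0.13, Bub1b -0.18 to 0.082, Bub3 -0.094 to 0.0075, Ccnb1 -0.18 to 0.12, Ccnb2 -0.26 to 0.071, Cdc20 -0.15 to 0.18, Cdk1 -0.24 to 0.033, Cenpa -0.052 to 0.073, Cenpb -0.0020 to 0.17, Cenpe -0.19 to 0.11, Cenpf -0.21 to 0.037, Chek1 -0.10 to 0.16, E2f8 -0.18 to 0.10, Fbxo5 -0.20 to 0.077, Kif11 -0.21 to 0.048, Kif20a -0.26 to 0.057, Kif23 -0.11 to 0.13, Kif2c -0.32 to 0.047, Kif4 -0.24 to 0.083, Mki67 -0.14 to 0.12, Ndc80 -0.062 to 0.14, Pclaf -0.18 to 0.14, Plk1 -0.16 to 0.16, Rad54l -0.20 to 0.056, Spc24 -0.15 to 0.23, Spc25 -0.060 to 0.21 and Top2a -0.14 to 0.10. The cause of these changes was not tested. At these depths counting error is small for all but the lowest members, such as Kif13a.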

Other observations

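Members not described above kept to the pattern of their role. Kif15, a partner of Kif11 in holding spindle poles apart, stood at 62.6% in KO 4 and Kif18b, a kinesin that shortens astral microtubules, at 55.5%. In the inner kinetochore, Cenpm, Cenpp, Cenpw, Cenph and Cenpi stood at 50.4 to 63.3%, and Cenpk, Cenpu and Cenpo at 71.1 to 80.5%. Cenpw, the histone-fold partner of Cenpt, measured 5.19, 5.25, 5.24 and 5.64 CPM under the wild type label and 6.36, 6.32, 3.37 and 7.39 CPM in KO 1, 2, 4 and 5. Its log2 difference was 0.14 ± 0.21 (SE, edgeR adjusted p = 0.766) and 0.33 ± 0.11 without KO 4 (SE, edgeR adjusted p = 0.0908). Cenpw thus lay with Kif14 and Nuf2 in the order of its libraries but was not called. Cenpt, its partner, stood at 90.6% in KO 4 and ran from 15.7 to 18.5 CPM over the 8 libraries.

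The subunits of heterotrimeric kinesin-2, which carries cargo along cilia and axons, differed in level: Kif3b measured 78.8 to 90.9 CPM, Kif3c 21.9 to 28.0 CPM and Kif3a 8.71 to 11.9 CPM over the 8 libraries. Kif1c, a transport kinesin of the Golgi and of RNA, ran from 81.2 to 89.8 CPM. Kif2a, which shortens microtubules in interphase and at spindle poles, ran from 92.5 to 109 CPM with KO 4 highest, whereas its relative Kif2c was lowest there. None of these passed the test between the labels.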
